A study of Mus musculus with 9 samples.

Results

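The 40 genes described here encode the route from glucose to pyruvate and lactate, the pyruvate dehydrogenase (PDH) complex with the enzymes that switch it, the lactate and pyruvate carriers, and the hypoxia-inducible factor (HIF) with the hydroxylases that control it. They were taken by gene symbol from a list, and 35 of the 40 had a named probe set among the 19505 genes of the array; *Eno1*, *Pfkfb1*, *Pfkfb2*, *Gpi1* and *Mpc2* had none and have no value here. RNA came from Pan02 cells, a mouse pancreatic ductal adenocarcinoma line, transduced with lentiviral particles and selected with puromycin. Pan02OE cells carried an open reading frame of murine NLRX1, a mitochondrial Nod-like receptor, and Pan02OECTL cells carried control open reading frame particles. Pan02KD cells carried an shRNA against *Nlrx1*, for which a single sequence was used, and Pan02KDCTL cells a scrambled shRNA. Each line was measured in normal medium and after 24 hours with a low dose of H2O2, on 1 Clariom S array for each line and medium, which gives 8 arrays. Since a line stands for 1 transduced population, its p-values reflect how far these arrays scatter, and nothing about how far repeated transductions would. The study compares each modified line with the control of its own system.

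Glycolysis turns glucose into pyruvate in the cytosol. Pyruvate is then reduced to lactate and exported, or it enters mitochondria, where the PDH complex turns it into acetyl-CoA. PDH kinases switch that complex off and PDH phosphatases switch it on. Tumor cells of the pancreas are known for high glucose uptake and lactate release. HIF, a transcription factor whose alpha subunit is marked for degradation by oxygen-dependent prolyl hydroxylases, induces many of these genes when oxygen is low, and it binds a short core sequence in their promoters.

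The promoters were read for that core, spelled ACGTG or GCGTG, on either strand. RefSeq (GRCm38.p6) gave the 250 bases upstream of a start site for 38 of the 40 genes, and 33 of these (86.8%) held at least 1 match in 1 of their promoters. The same windows held a match in 48.8% of the 15691 matched genes of the array and in 41.5% of 27025 genes in all. Genes with several start sites had several windows, and of single promoters 74.1% held a match among these genes, 45.5% among genes of the array and 38.6% in all. The palindrome CACGTG, which holds ACGTG on both strands and is known as an E-box, was in 18.4% of the 38 genes against 7.92% of those of the array. A match of these letters is a description and not a binding site. The windows of 4 of the 5 genes that changed in both modified lines are printed to show what such a promoter looks like. They were chosen among called genes that carry a match. *Eno3*, which is not printed, held 1 match. Each runs to the base before the start site, 5′ to 3′ on the strand of the gene, and capitals mark ACGTG or GCGTG, or the same word on the opposite strand.
Slc2a1, chr4:119108495-119108744, plus strand: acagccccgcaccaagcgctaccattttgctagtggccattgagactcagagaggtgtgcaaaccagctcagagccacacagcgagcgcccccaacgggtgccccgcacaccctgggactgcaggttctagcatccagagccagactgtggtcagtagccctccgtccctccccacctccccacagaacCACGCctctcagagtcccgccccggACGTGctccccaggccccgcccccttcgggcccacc
Slc16a1, chr3:104638414-104638663, plus strand: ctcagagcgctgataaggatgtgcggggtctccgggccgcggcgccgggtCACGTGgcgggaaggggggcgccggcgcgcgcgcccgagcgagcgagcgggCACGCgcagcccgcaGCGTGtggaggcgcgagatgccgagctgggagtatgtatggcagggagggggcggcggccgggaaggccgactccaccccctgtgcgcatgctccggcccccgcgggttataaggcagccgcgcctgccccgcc
Pfkfb3, chr2:11553930-11554179, minus strand: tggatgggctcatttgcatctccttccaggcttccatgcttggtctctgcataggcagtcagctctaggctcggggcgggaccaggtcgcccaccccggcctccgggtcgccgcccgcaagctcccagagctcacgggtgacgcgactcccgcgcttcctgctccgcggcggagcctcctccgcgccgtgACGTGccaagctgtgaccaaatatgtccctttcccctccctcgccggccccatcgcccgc
Egln1, chr8:124949255-124949504, minus strand: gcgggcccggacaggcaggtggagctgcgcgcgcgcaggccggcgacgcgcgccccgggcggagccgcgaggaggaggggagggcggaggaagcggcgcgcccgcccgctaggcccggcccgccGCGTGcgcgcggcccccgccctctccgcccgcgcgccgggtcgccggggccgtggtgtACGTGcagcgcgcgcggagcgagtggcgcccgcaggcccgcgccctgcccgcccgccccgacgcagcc
The window of *Slc16a1* held 4 matches, of which 2 overlap in a CACGTG, those of *Slc2a1* and *Egln1* 2 each, and that of *Pfkfb3*, the farthest upstream of its start sites, 1. Of these 4 genes *Slc2a1* and *Slc16a1* lay higher in Pan02OE than in Pan02OECTL, and *Pfkfb3* and *Egln1* lay lower. Since all 4 were chosen as carrying a match, they cannot show whether matches go with a direction.

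*Nlrx1* itself read 17.10 in normal medium and 17.31 in H2O2 in the Pan02OE arrays, against 6.89 and 6.90 in Pan02OECTL (log2 signal), at least 849-fold higher (limma adjusted p = 7.5e-09). It read 6.68 and 6.56 in the arrays labelled Pan02KD and 5.96 and 6.40 in Pan02KDCTL, a log2 difference of 0.44 (SE 0.17, adjusted p = 0.15). The 6 arrays of lines other than Pan02OE read under the highest of 23 antigenomic background probe sets (7.48). *Nlrx1* RNA thus does not check the knockdown label, and every direction given for the arrays labelled Pan02KD rests on that label. The paper reports a western blot of NLRX1 protein in its transduced lines, and protein was not measured here. The same limit of 7.48 is used for all genes below. A line whose mean is at or below 7.48 is called in the background, and a difference from such a line is given as a lower bound on the fold. Of the 35 measured genes 25 lay above this limit in all 4 lines, 29 in at least 1 line and 6 in none: *Slc2a3*, *Eno2*, *Ldhb*, *Pdk2*, *Pdk4* and *Slc16a3*. The ductal keratin genes *Krt7* and *Krt19* were above it in every line, whereas the epithelial gene *Epcam* was in the background in every line, as were all measured acinar, islet, leukocyte and endothelial markers. Of 8 ductal markers 7 rose in Pan02OE, all but *Epcam*, and in the arrays labelled Pan02KD 4 fell (*Krt7*, *Krt19*, *Muc1* and *Sox9*) and 1 rose. *Krt7* rose in Pan02OE (1.91) and fell in the arrays labelled Pan02KD (−2.09), whereas *Cdh1*, which encodes E-cadherin, rose in both (2.13 and 2.37). The mean signal of the 8 was 12.54 and 12.55 in the Pan02OE arrays against 11.36 and 11.37 in Pan02OECTL, and 10.92 and 11.01 in the arrays labelled Pan02KD against 11.59 and 11.84 in Pan02KDCTL. Of 5 measured fibroblast markers *Pdgfrb* lay above the limit in Pan02KDCTL and the arrays labelled Pan02KD, and *Dcn* in the latter alone (10.20 and 10.74). The part of these marker differences in the results below was not tested.

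In Pan02OE against Pan02OECTL 14 of the 35 measured genes changed at an adjusted p under 0.05, 5 higher and 9 lower (limma, Benjamini-Hochberg over 19505 genes, 2 arrays per line). Of all genes 16.5% changed, 7.02% higher and 9.49% lower. Of the 8787 genes with at least 1 line above the background limit 31.4% changed, and of the genes described here 14 of 29 (48.3%) did. A gene that is above the limit in 1 line alone had to differ to be counted there, so these shares are a description. Fewer cells of a kind and less RNA per cell cannot be told apart in such bulk RNA. The split moved with the setting. It was 3 higher and 9 lower under cyclic loess (16.3% of all genes changed) and 6 and 9 with each array centered on its median (16.9%). It was 8 and 10 with a filter at the 40th percentile of the mean signal (31.3% of the genes tested). It was 11 and 10 with genes in the background left out (42.2%) and 11 and 9 with a variance trend and robust fit (20.3%). In the arrays labelled Pan02KD against Pan02KDCTL 9 changed, 3 higher and 6 lower, against 13.6% of all genes, 7.59% higher and 5.97% lower; among genes above the limit 8 of 29 (27.6%) did, against 26.3%, which is close to the background. The median difference of the 35 genes was 0.06 in Pan02OE and −0.19 in the arrays labelled Pan02KD, where that of all genes was 0.04 and −0.00. In each comparison every called gene had the same sign in both media and no overlap between the arrays of its lines. The genes were called on these same arrays, so this describes the calls and adds no support to them. The share of all genes without such overlap was not counted. *Slc2a1*, *Pfkfb3*, *Eno3*, *Slc16a1* and *Egln1* changed in both comparisons (14.3% of the 35), each with opposite signs. Of all genes 7.63% changed in both and 7.28% did so with opposite signs. The plot of members by array shows all values.

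**Figure D1:**
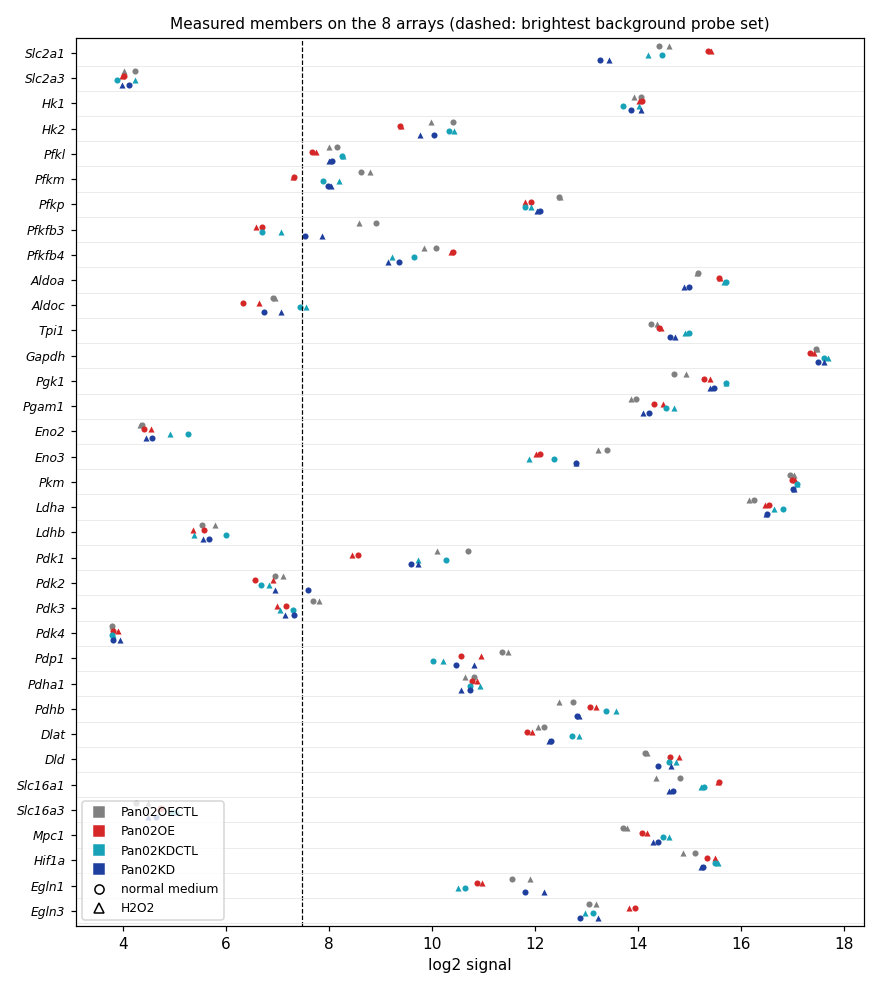
Log2 signal (horizontal axis) of the 35 measured genes on each of the 8 arrays; color gives the line, circles are normal medium and triangles H2O2. The dashed line is the brightest background probe set (7.48), and 6 genes lie left of it in every line.

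**Figure D2:**
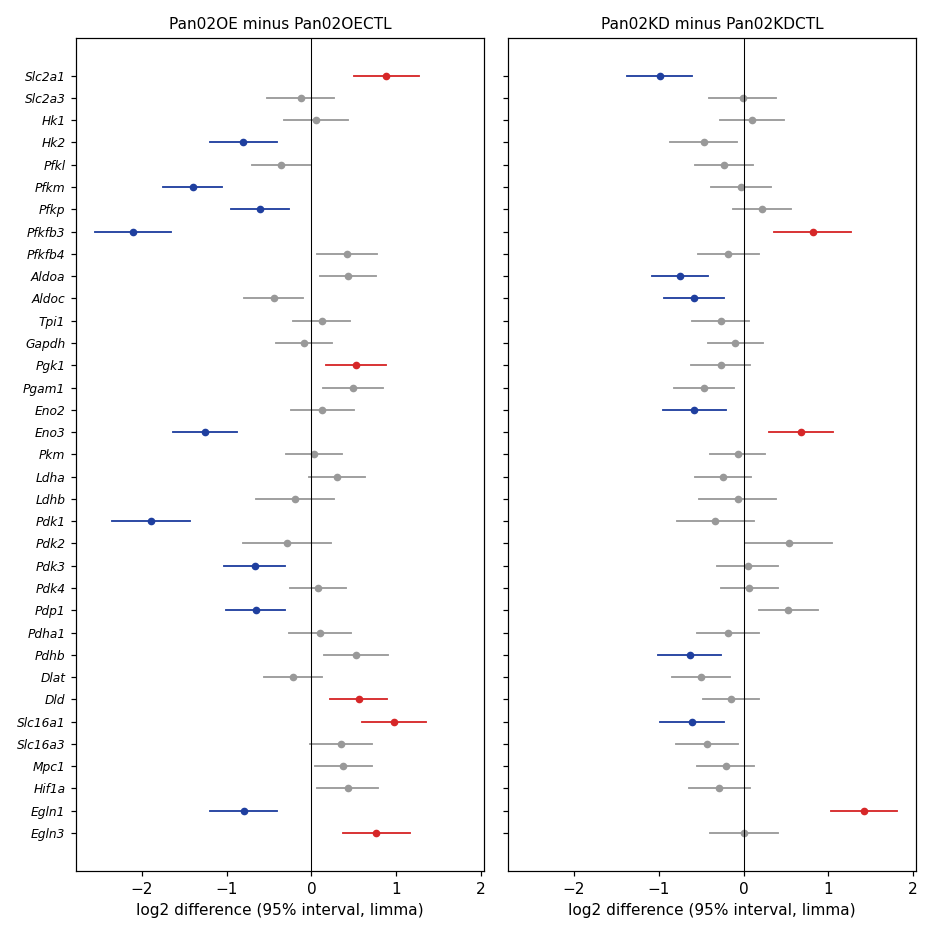
Log2 difference of Pan02OE from Pan02OECTL (left) and of the arrays labelled Pan02KD from Pan02KDCTL (right) for the 35 genes, with 95% intervals from limma. Red is higher and blue lower at an adjusted p under 0.05, and gray did not pass; 14 genes passed on the left and 9 on the right.

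Glucose enters the cell through transporters of the SLC2A family. *Slc2a1*, which encodes the widely used transporter GLUT1, read 15.36 in normal medium and 15.42 in H2O2 in Pan02OE and 14.40 and 14.61 in Pan02OECTL. The Pan02OE arrays were the highest of the 8, and the difference was 0.88 (1.84-fold, SE 0.17, adjusted p = 0.00689). In the knockdown system *Slc2a1* read 13.26 and 13.44 in the arrays labelled Pan02KD, the lowest of the 8, against 14.48 and 14.20 in Pan02KDCTL, and fell by 0.99 (1.99-fold, SE 0.17, adjusted p = 0.00486). The control lines lay next to each other (difference −0.17, SE 0.17, adjusted p = 0.593), so the modified lines lay on opposite sides of both, and the difference between the responses of the systems was 1.87 (SE 0.24, adjusted p = 0.00048). The call in Pan02OE was lost without the Pan02OECTL array in normal medium (adjusted p = 0.0811) or the Pan02OE array in H2O2 (0.0547), and that in the knockdown system without the array labelled Pan02KD in normal medium (0.0632). *Slc2a3*, a high-affinity transporter, lay between 3.89 and 4.24 on all arrays, in the background.

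Hexokinases trap glucose in the cell by phosphorylation. *Hk1*, the broadly expressed form, read 13.71 to 14.08 over the 8 arrays and passed no test. *Hk2*, the form induced in many tumors, read 9.39 and 9.41 in Pan02OE against 10.42 and 9.99 in Pan02OECTL, and fell by 0.80 (1.75-fold, SE 0.18, adjusted p = 0.0125). It read 10.04 and 9.77 in the arrays labelled Pan02KD against 10.33 and 10.43 in Pan02KDCTL, a difference of −0.47 (SE 0.18) that did not pass (adjusted p = 0.121). *Hk2* and *Slc2a1*, whose products act at consecutive steps, thus had opposite signs in Pan02OE. The call for *Hk2* was lost without the array of Pan02OE in normal medium (adjusted p = 0.112) or that of Pan02OECTL in normal medium (0.141).

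Phosphofructokinase is the main control point of glycolysis, and its 3 subunit genes were measured. *Pfkm*, the muscle form, read 7.32 and 7.30 in Pan02OE, in the background, against 8.62 and 8.81 in Pan02OECTL, at least 2.36-fold lower (fitted difference −1.40, SE 0.16, adjusted p = 0.000327). The Pan02OE arrays were the lowest of the 8, since *Pfkm* read 7.90 and 8.20 in Pan02KDCTL and 7.99 and 8.04 in the arrays labelled Pan02KD. *Pfkp*, the platelet form, read 11.93 and 11.80 in Pan02OE against 12.46 and 12.49 in Pan02OECTL and fell by 0.61 (SE 0.15, adjusted p = 0.0223). In the knockdown system *Pfkp* lay between 11.80 and 12.11 (difference 0.22, adjusted p = 0.427). *Pfkl*, the liver form, read 7.68 to 8.27 over all arrays, with a difference of −0.36 in Pan02OE (adjusted p = 0.156) and −0.23 in the arrays labelled Pan02KD (adjusted p = 0.403). The fall of *Pfkm* was called without each array in turn. That of *Pfkp* was lost without either Pan02OE array (adjusted p = 0.0777 for normal medium and 0.174 for H2O2) and without either Pan02OECTL array (0.115 and 0.141).

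The PFKFB enzymes make and remove the sugar bisphosphate that activates phosphofructokinase. *Pfkfb3*, the form with the strongest bias toward making it, had the largest fitted difference of the 35 genes in Pan02OE. It read 6.70 and 6.59 in Pan02OE, in the background, and 8.91 and 8.59 in Pan02OECTL, at least 2.42-fold lower (fitted difference −2.11, SE 0.20, adjusted p = 0.000134). In the knockdown system *Pfkfb3* read 7.54 and 7.87 in the arrays labelled Pan02KD against 6.70 and 7.08 in Pan02KDCTL, in the background, and rose by at least 1.17-fold (fitted difference 0.82, SE 0.20, adjusted p = 0.0259). The Pan02KDCTL arrays thus lay near those of Pan02OE and below those of Pan02OECTL (difference between the control lines −1.86, adjusted p = 0.000227, at least 2.42-fold), and the Pan02OECTL arrays were the highest of the 8. The fall in Pan02OE was called without each array in turn. The rise in the knockdown system was lost without either array labelled Pan02KD (adjusted p = 0.0662 for normal medium and 0.241 for H2O2) and without Pan02KDCTL in normal medium (0.15). *Pfkfb4*, which also makes the activator, read 10.41 and 10.37 in Pan02OE against 10.09 and 9.85 in Pan02OECTL, and 9.36 and 9.16 in the arrays labelled Pan02KD against 9.65 and 9.23 in Pan02KDCTL. Its differences, 0.42 (adjusted p = 0.108) and −0.18, did not pass.

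**Figure D3:**
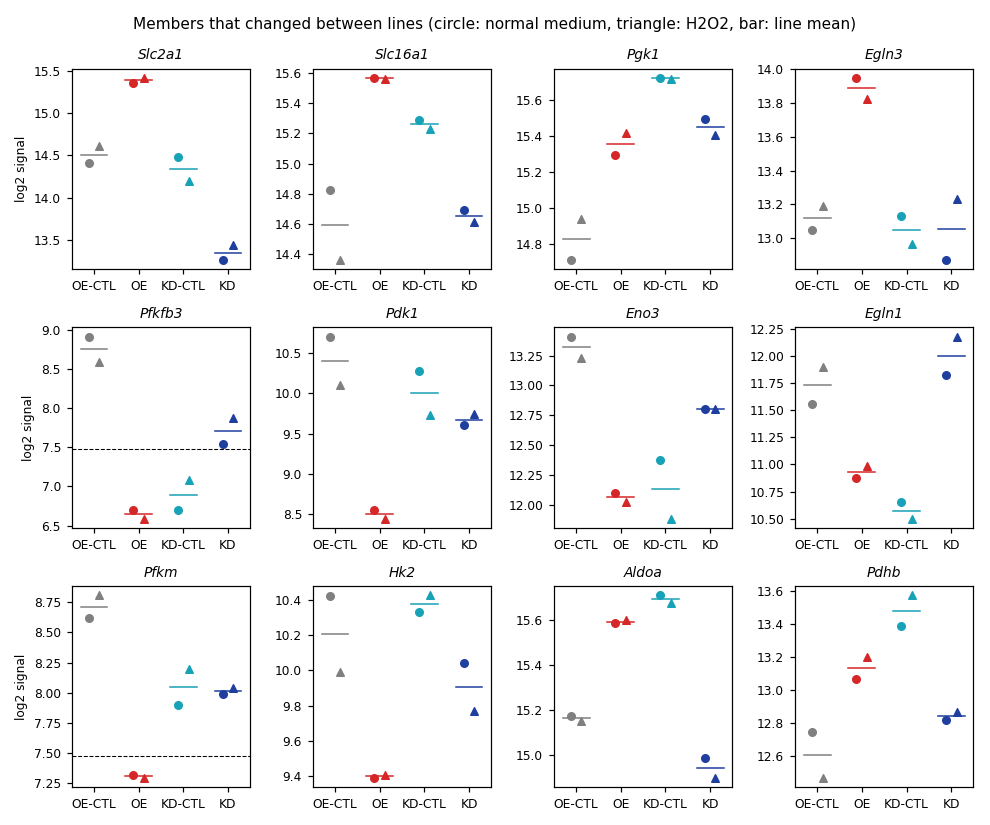
Log2 signal of 12 genes by line (OE-CTL, OE, KD-CTL and KD stand for Pan02OECTL, Pan02OE, Pan02KDCTL and Pan02KD); circles are normal medium, triangles H2O2, bars the mean of the 2 arrays, and the dashed line, where drawn, the brightest background probe set (7.48). Each panel has its own axis, which does not start at 0; *Pfkfb3*, *Eno3* and *Egln1* are highest in Pan02OECTL or Pan02KD and lowest in Pan02OE or Pan02KDCTL.

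Aldolases, triose phosphate isomerase, GAPDH, phosphoglycerate kinase and phosphoglycerate mutase carry out the middle of the pathway. Of their 6 measured genes 1 rose in Pan02OE, where 7.02% of all genes did. In the arrays labelled Pan02KD 2 of the 6 fell, where 5.97% of all genes did. The median difference of the 6 was 0.28 and −0.37. With so few genes these counts are a description. *Pgk1*, which encodes phosphoglycerate kinase, read 15.29 and 15.41 in Pan02OE against 14.71 and 14.94 in Pan02OECTL and rose by 0.53 (SE 0.15, adjusted p = 0.0472). *Aldoa*, the main aldolase of muscle and of many tumors, read 14.99 and 14.90 in the arrays labelled Pan02KD against 15.71 and 15.68 in Pan02KDCTL and fell by 0.75 (1.68-fold, SE 0.15, adjusted p = 0.00897). It read 15.59 and 15.60 in Pan02OE against 15.18 and 15.15 in Pan02OECTL, and the difference of 0.43 did not pass (adjusted p = 0.0794). *Aldoc*, the brain aldolase, read 6.75 and 7.07 in the arrays labelled Pan02KD against 7.44 and 7.56 in Pan02KDCTL, and its call (fitted difference −0.59, adjusted p = 0.0358, at least 1.01-fold) lies at the edge of the background. *Gapdh*, often used as a reference gene, read 17.35 and 17.42 in Pan02OE, 17.47 and 17.48 in Pan02OECTL, 17.50 and 17.62 in the arrays labelled Pan02KD, and 17.62 and 17.69 in Pan02KDCTL, and passed neither test. *Tpi1* (14.25 to 14.99 over the 8 arrays) and *Pgam1* (13.87 to 14.70), the genes of triose phosphate isomerase and phosphoglycerate mutase, passed neither test either. Several of these genes have near-identical pseudogenes in the mouse, and the part of those in the signal was not tested.

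The calls of this stretch leaned on single arrays. That of *Pgk1* was lost without either Pan02OE array (adjusted p = 0.16 for normal medium and 0.233 for H2O2), either Pan02OECTL array (0.302 and 0.108) and either array labelled Pan02KD (0.0707 each), and under cyclic loess (0.102). That of *Aldoa* was lost without either array labelled Pan02KD (0.0648 and 0.0996). That of *Aldoc* was lost without each of the 8 arrays (0.0516 to 0.233), with a variance trend and without the medium term (0.0567 and 0.0513).

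Enolase and pyruvate kinase complete the route to pyruvate. *Eno3*, the muscle enolase, read 12.10 and 12.03 in Pan02OE against 13.41 and 13.23 in Pan02OECTL and fell by 1.25 (2.38-fold, SE 0.17, adjusted p = 0.000998). It read 12.81 on both arrays labelled Pan02KD against 12.38 and 11.89 in Pan02KDCTL and rose by 0.67 (1.60-fold, SE 0.17, adjusted p = 0.0279). As for *Pfkfb3*, Pan02KDCTL lay well below Pan02OECTL (−1.19, SE 0.17, adjusted p = 0.00123). The difference between the responses of the systems was −1.93 (SE 0.24, adjusted p = 0.000384). The fall in Pan02OE was called without each array in turn, and the rise was lost without either array labelled Pan02KD (adjusted p = 0.0824 for normal medium and 0.248 for H2O2) and without Pan02KDCTL in H2O2 (0.181). *Eno2*, the neuronal enolase, passed in the knockdown system (−0.58, adjusted p = 0.0472) with all arrays in the background, between 4.33 and 5.27, so no fold is given, and this call was lost without each array except that of Pan02KDCTL in H2O2 (adjusted p = 0.0561 to 0.236), with arrays centered on their medians (0.0515) and under cyclic loess (0.0617).

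*Pkm*, which encodes the pyruvate kinase of most tissues and tumors, read 16.96 to 17.10 over the 8 arrays and passed no test. *Ldha*, whose product reduces pyruvate to lactate, read 16.55 and 16.46 in Pan02OE, 16.25 and 16.17 in Pan02OECTL, 16.50 and 16.48 in the arrays labelled Pan02KD and 16.82 and 16.64 in Pan02KDCTL. The differences of 0.30 (SE 0.15, adjusted p = 0.228) and −0.24 (SE 0.15, adjusted p = 0.363) did not pass. Their intervals ran from −0.03 to 0.63 and from −0.57 to 0.09. With a variance trend in limma both passed (adjusted p = 0.012 and 0.0472). *Ldhb*, the subunit more often linked with lactate use, read 5.37 to 5.99, in the background.

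Of the 4 PDH kinase genes 2 fell in Pan02OE and none rose. *Pdk1*, a kinase that HIF is known to induce, read 8.56 and 8.45 in Pan02OE against 10.70 and 10.09 in Pan02OECTL and fell by 1.89 (3.71-fold, SE 0.20, adjusted p = 0.000271). The Pan02OE arrays lay below the other 6, since *Pdk1* read 10.27 and 9.73 in Pan02KDCTL and 9.60 and 9.74 in the arrays labelled Pan02KD (difference −0.33, SE 0.20, adjusted p = 0.362). *Pdk3*, another kinase, read 7.17 and 7.00 in Pan02OE, in the background, against 7.70 and 7.82 in Pan02OECTL, at least 1.22-fold lower (fitted difference −0.67, SE 0.16, adjusted p = 0.0183). *Pdk2* (6.57 to 7.60) and *Pdk4* (3.79 to 3.94) had every line mean in the background. The phosphatase gene *Pdp1*, whose product acts against the kinases, was lower as well: it read 10.57 and 10.96 in Pan02OE against 11.36 and 11.48 in Pan02OECTL and fell by 0.66 (SE 0.15, adjusted p = 0.0169). In the knockdown system *Pdp1* read 10.47 and 10.83 against 10.03 and 10.21 in Pan02KDCTL (0.53, adjusted p = 0.0528), and *Pdk3* lay in the background in both lines. Of the 5 genes that switch the complex 3 fell in Pan02OE, where 9.49% of all genes did, and none passed in the knockdown system (2 at an unadjusted p under 0.05 by limma), where 13.6% of all genes did. With so few genes these shares are a description. The call of *Pdk1* was kept without each array in turn. That of *Pdk3* was lost without either Pan02OE array (adjusted p = 0.0891 for normal medium and 0.124 for H2O2) and without Pan02OECTL in H2O2 (0.181), and that of *Pdp1* without either Pan02OE array (0.141 and 0.0667) or either Pan02OECTL array (0.154 and 0.0633).

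Among the subunits of the PDH complex *Dld*, the dehydrogenase it shares with other complexes, read 14.63 and 14.80 in Pan02OE against 14.14 and 14.18 in Pan02OECTL and rose by 0.56 (SE 0.15, adjusted p = 0.0308). It read 14.40 and 14.64 in the arrays labelled Pan02KD and 14.60 and 14.73 in Pan02KDCTL, which overlap (difference −0.15). *Pdhb*, the beta subunit of the pyruvate-decarboxylating enzyme, read 12.82 and 12.87 in the arrays labelled Pan02KD against 13.39 and 13.57 in Pan02KDCTL and fell by 0.64 (1.55-fold, SE 0.17, adjusted p = 0.0339). In Pan02OE *Pdhb* read 13.07 and 13.20 against 12.74 and 12.47, a difference of 0.53 that did not pass (adjusted p = 0.0624). Its partner gene *Pdha1* lay between 10.57 and 10.93 on all arrays and passed no test, and *Dlat*, the acetyltransferase subunit, had differences of −0.22 and −0.50 (adjusted p = 0.0602 for the latter). The call of *Dld* was lost without either Pan02OE array (adjusted p = 0.14 for normal medium and 0.166 for H2O2), either Pan02OECTL array (0.106 and 0.207) and either array labelled Pan02KD (0.053 each), and under cyclic loess (0.0587), and that of *Pdhb* without either array labelled Pan02KD (0.178 and 0.18) or either Pan02KDCTL array (0.0544 and 0.18).

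Lactate leaves the cell, or enters it, through monocarboxylate transporters. *Slc16a1*, which encodes MCT1, read 15.57 and 15.56 in Pan02OE against 14.82 and 14.36 in Pan02OECTL and rose by 0.98 (1.97-fold, SE 0.17, adjusted p = 0.00364). It read 14.69 and 14.61 in the arrays labelled Pan02KD against 15.29 and 15.23 in Pan02KDCTL and fell by 0.61 (1.52-fold, SE 0.17, adjusted p = 0.042). *Slc16a1* thus moved with *Slc2a1* in both systems, and the responses of the systems differed by 1.58 (SE 0.24, adjusted p = 0.00116). Unlike for *Slc2a1*, the control lines differed, with Pan02KDCTL 0.67 above Pan02OECTL (adjusted p = 0.0233). *Slc16a3*, which encodes the HIF-inducible transporter MCT4, lay between 4.25 and 5.05, in the background. *Mpc1*, a subunit of the mitochondrial pyruvate carrier, read 14.08 and 14.17 in Pan02OE, 13.72 and 13.79 in Pan02OECTL, 14.39 and 14.29 in the arrays labelled Pan02KD and 14.50 and 14.60 in Pan02KDCTL, and passed neither test (0.38, adjusted p = 0.134, and −0.21). The rise of *Slc16a1* was lost without the Pan02OECTL array in H2O2 (adjusted p = 0.0538). Its fall in the knockdown system was lost without either array labelled Pan02KD (0.222 for normal medium and 0.178 for H2O2), either Pan02KDCTL array (0.0858 and 0.179) and either Pan02OE array (0.0565 each).

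*Hif1a*, the alpha subunit of the hypoxia-inducible factor, is controlled mainly at the protein, which was not measured here. It read 15.35 and 15.49 in Pan02OE against 15.12 and 14.87 in Pan02OECTL (0.43, SE 0.16, adjusted p = 0.107), and 15.26 and 15.22 in the arrays labelled Pan02KD against 15.50 and 15.56 in Pan02KDCTL (−0.29, SE 0.16, adjusted p = 0.306). Neither passed. The former passed with genes in the background left out (limma adjusted p = 0.039) and with a variance trend (0.00668). *Egln1* encodes PHD2, the main hydroxylase that marks the HIF alpha subunit for degradation. It read 10.88 and 10.98 in Pan02OE against 11.56 and 11.90 in Pan02OECTL and fell by 0.80 (1.74-fold, SE 0.17, adjusted p = 0.0125). In the arrays labelled Pan02KD *Egln1* read 11.82 and 12.18 against 10.65 and 10.50 in Pan02KDCTL and rose by 1.42 (2.68-fold, SE 0.17, adjusted p = 0.000875), the largest difference of the 35 genes in that system. Here too Pan02KDCTL lay below Pan02OECTL (−1.15, SE 0.17, adjusted p = 0.00174), and the responses of the systems differed by −2.22 (SE 0.25, adjusted p = 0.0002). *Egln3*, which encodes PHD3, another of the hydroxylases, went the other way from *Egln1* in Pan02OE. *Egln3* read 13.95 and 13.82 against 13.05 and 13.19 in Pan02OECTL and rose by 0.77 (1.70-fold, SE 0.18, adjusted p = 0.0158). It read 12.87 and 13.23 in the arrays labelled Pan02KD and 13.13 and 12.97 in Pan02KDCTL, with overlap. The rise of *Egln1* in the knockdown system was called without each array in turn. Its fall in Pan02OE was lost without either Pan02OE array (adjusted p = 0.0639 for normal medium and 0.0925 for H2O2) and without Pan02OECTL in H2O2 (0.123), and the call of *Egln3* without Pan02OE in normal medium (0.138) or either Pan02OECTL array (0.124 and 0.0762).

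Other genes of these pathways were read from lists of 93 measured genes. Of the 93, 13 changed in Pan02OE (5 higher, 8 lower) and 13 in the arrays labelled Pan02KD (6 higher, 7 lower), 14.0% each, close to the 16.5% and 13.6% of all genes. Among 30 other genes known as hypoxia-induced 5 passed in Pan02OE (16.7%, close to the 16.5% of all genes), all of them higher (7.02% of all genes were) and 1 of them in the background. *Ddit4*, an inhibitor of mTORC1, read 11.90 and 12.14 against 10.22 and 10.89 in Pan02OECTL and rose by 1.47 (SE 0.17, adjusted p = 0.000404). *Ero1a*, an oxidase of the endoplasmic reticulum (0.85), and the mitochondrial protein genes *Higd1a* (0.81) and *Fam162a* (0.59), these 3 named after their values were seen, rose too, and *Rora*, a nuclear receptor gene, passed (0.88) with both lines in the background. The other 25 did not pass, and the median difference of the list was 0.05 against 0.04 for all genes. In the arrays labelled Pan02KD 5 of the 30 passed as well (16.7% against 13.6% of all genes), 2 higher and 3 lower. Among the latter were *Stc2*, a secreted glycoprotein (−0.81, SE 0.16), and *Rora* (−1.02, in the background).

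Of 19 other glycolysis genes *Pgm1*, a phosphoglucomutase that links glycogen with glycolysis, read 7.36 and 7.43 in Pan02OE, in the background, against 9.07 and 9.58 in Pan02OECTL, at least 3.60-fold lower (adjusted p = 0.000186). It rose by 1.00 in the arrays labelled Pan02KD (9.06 and 9.16 against 7.74 and 8.47 in Pan02KDCTL, adjusted p = 0.00883). *Bpgm*, bisphosphoglycerate mutase, was the other of the 2 that fell in Pan02OE (−0.93), which is 10.5% of the 19 against 9.49% of all genes. In the arrays labelled Pan02KD 3 of the 19 passed (15.8% against 13.6% of all genes). These were *Pgm1*, *Bpgm* (0.72, named there after its values were seen) and *Galm*, a mutarotase that converts forms of galactose and glucose. *Galm* read 4.09 and 4.08 against 5.14 and 6.02 in Pan02KDCTL, with both lines in the background (fitted difference −1.50, adjusted p = 0.00345), so no fold is given. Of 15 other pyruvate genes 4 passed in Pan02OE (26.7% against 16.5% of all genes), all of them lower (9.49% of all genes were), led by *Pck2*, the mitochondrial enzyme that turns oxaloacetate into phosphoenolpyruvate (−1.40, SE 0.23), and *Me2*, mitochondrial malic enzyme (−1.06, SE 0.22). In the arrays labelled Pan02KD 3 of the 15 passed (20% against 13.6% of all genes). *Pck2* (1.12) and *Lipt1*, which attaches lipoate to mitochondrial dehydrogenases (1.34), rose and *Pdhx*, a PDH complex component, fell (−0.64). Of 10 other glucose transporters and their regulators 1 fell in either comparison (10%), and of 9 pentose phosphate genes 1 did (11.1%). Of all genes 9.49% fell in Pan02OE and 5.97% in the arrays labelled Pan02KD. These falls were led by *Prps2*, a phosphoribosyl pyrophosphate synthetase (−1.30 in Pan02OE, SE 0.17). Of 10 regulators of HIF none passed in either comparison (3 and 2 at an unadjusted p under 0.05 by limma). The plot of calls by list shows these counts.

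**Figure D4:**
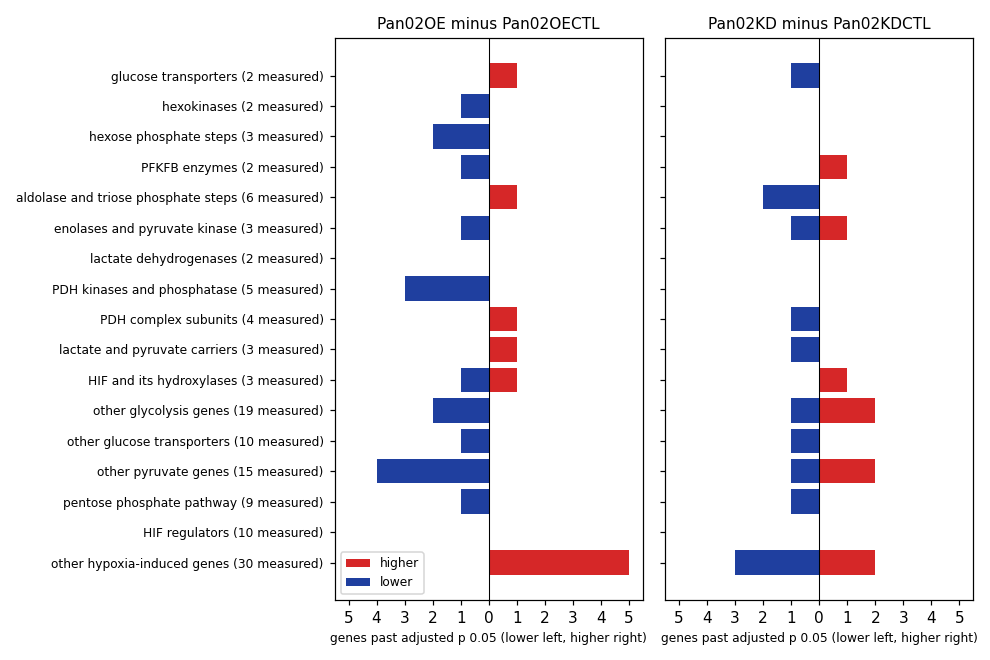
Number of genes of each list that passed an adjusted p of 0.05 (limma), higher to the right in red and lower to the left in blue, for Pan02OE against Pan02OECTL and the arrays labelled Pan02KD against Pan02KDCTL. The upper 11 lists are the genes described here and the lower 6 the other pathway lists; over the latter 13 of 93 genes passed in each comparison.

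The control lines differed from each other as well. Between Pan02KDCTL and Pan02OECTL 22 of the 35 changed, 14 higher and 8 lower in Pan02KDCTL, against 16.9% of all genes, 7.64% higher and 9.28% lower. Among genes above the background limit these were 20 of 29 (69.0%) against 32%. The count lay above the 14 of the Pan02OE comparison, but not in every setting. It was 20 in both with a variance trend (20.5% of all genes, and 20.3% for Pan02OE). With genes in the background left out it was 20 against 21 for Pan02OE (42.5% of the genes tested, and 42.2% for Pan02OE). Without any 1 of the 4 control arrays, which leaves a line with 1 array, it was level with or below that of Pan02OE. Higher in Pan02KDCTL were genes of the middle of glycolysis, *Pgk1* (0.89, SE 0.15, adjusted p = 0.00378), *Pgam1* (0.72), *Tpi1* (0.64) and *Aldoa* (0.53), with *Mpc1* (0.80), *Pdhb* (0.87), *Dlat* (0.68) and *Hif1a* (0.53). Lower were *Pfkfb3* (−1.86), *Pdp1* (−1.30), *Eno3* (−1.19), *Egln1* (−1.15), *Pfkm* (−0.67), *Pfkp* (−0.61), *Pdk3* (−0.57) and *Pfkfb4* (−0.53), of which *Pfkfb3* and *Pdk3* lay in the background in Pan02KDCTL. *Slc2a1* (−0.17) and *Pdk1* (−0.39, SE 0.20, adjusted p = 0.249) did not pass. This comparison shares Pan02OECTL with the Pan02OE comparison and Pan02KDCTL with that of the knockdown system, and the vector, its insert and the population differ together between the controls, so their parts cannot be told apart. Of the 14 genes called in Pan02OE 10 were called between the control lines too, all 10 with the same sign against Pan02OECTL. Both differences subtract the same Pan02OECTL arrays, which pushes their signs the same way, so this describes the calls and adds no support to them. The share of all genes that did so was not counted, so the overlap is not read as a trait of these genes. For *Pfkm*, for example, the fall against Pan02OECTL was 1.40 in Pan02OE and 0.67 in Pan02KDCTL, and for *Pdp1* it was 0.66 and 1.30. For *Pgk1* the rise was 0.53 and 0.89. Without any 1 of the 4 control arrays the count of 22 between the control lines fell, as did the count over all genes. The calls of *Aldoa*, *Aldoc*, *Dld*, *Hif1a*, *Ldha*, *Pdk3* and *Pfkfb4* in this comparison were lost without each of the 8 arrays (adjusted p = 0.0523 to 0.34), and each also under 1 to 3 of the other settings (0.0508 to 0.091). Those of *Pgk1*, *Pgam1*, *Tpi1*, *Mpc1*, *Pdhb*, *Dlat*, *Pfkm*, *Pfkp* and *Slc16a1* were lost without 1 to 3 of the control arrays (0.0515 to 0.235), as were those of *Eno2* and *Slc16a3*, which lay in the background, without 3 and 4 of them (0.064 to 0.218).

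The differences of the modified lines from their controls were compared with each other. They differed for 17 of the 35 genes, 9 with the higher value in the overexpression system and 8 with the lower, against 22.3% of all genes; among genes above the limit 16 of 29 (55.2%) did, against 41.6%. *Pfkfb3* (−2.92, SE 0.28, adjusted p = 9.11e-05) and *Egln1* had the largest differences with the lower value in the overexpression system, and *Slc2a1* and *Slc16a1* those with the higher. *Pdk1* (−1.56, SE 0.29, adjusted p = 0.00379) and *Pfkm* (−1.37, SE 0.22, adjusted p = 0.00176) differed as well, although neither passed in the knockdown system itself. *Egln3* did not pass this test (0.76, SE 0.25, adjusted p = 0.0563), nor did *Hk2*, so a difference of response was not shown for these. Over all 4 lines 22 of the 35 varied (limma F test), against 25.4% of all genes; among genes above the limit 21 of 29 (72.4%) varied, against 48.7%.

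None of the 35 genes passed for a change after 24 hours of H2O2 that the 4 lines share (limma, medium as a term over 4 lines). Of all 19505 genes none passed either, and the smallest adjusted p was 0.263; at an unadjusted p under 0.05 limma gave 1231 genes. Of these *Pdp1* was the 1 gene described here (0.26, SE 0.11, adjusted p = 0.76). *Pdp1* was higher in H2O2 in all 4 lines, by 0.12 in Pan02OECTL, 0.38 in Pan02OE, 0.18 in Pan02KDCTL and 0.36 in Pan02KD. *Pdk1* was lower in both control lines, by 0.60 in Pan02OECTL and 0.54 in Pan02KDCTL, where it differed by −0.11 in Pan02OE and 0.14 in Pan02KD. *Pfkfb3* was lower in H2O2 in Pan02OECTL (−0.32) and higher in Pan02KDCTL (0.38) and Pan02KD (0.33). Within a line there is 1 array per medium and no test. No gene of the 35 reached 2-fold there, where 0.169% of all genes did in Pan02OECTL, 0.231% in Pan02OE, 1.39% in Pan02KDCTL and 0.256% in Pan02KD, with 0.00513% higher by that much in both of the latter. The 95% intervals of the fitted H2O2 difference, before adjustment over genes, reached a median of 0.25 to either side, so smaller changes could not be told from 0 with these arrays. Larger changes could fail to pass as well. That of *Pdk1*, the largest of the 35, was −0.28, with an interval of −0.60 to 0.04 (limma adjusted p = 0.798). That of *Pdp1*, 0.26 with an interval of 0.02 to 0.51, failed only after adjustment (limma adjusted p = 0.76). The fit held 1 H2O2 term for all 4 lines, so a change in 1 line alone was not tested.

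**Figure D5:**
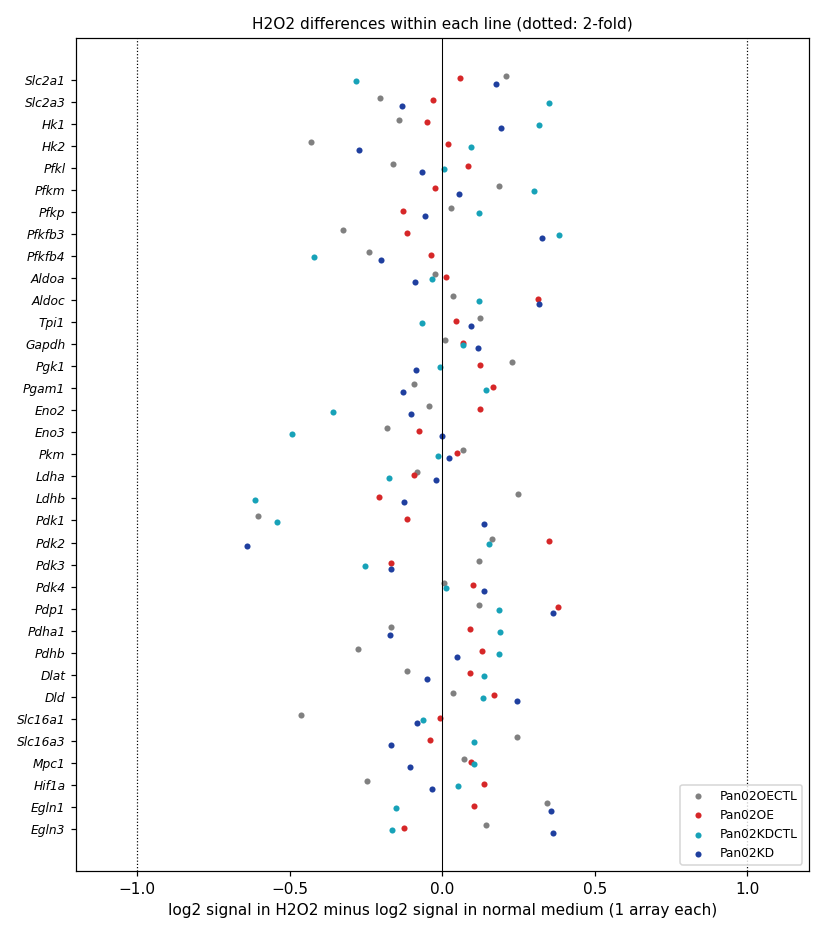
Log2 signal in H2O2 minus that in normal medium (horizontal axis) for the 35 genes, with 1 point for each of the 4 lines. Dotted lines mark 2-fold, which no point reaches.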

How the data were processed

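The authors hybridized RNA of the 8 Pan02 cultures to Clariom S mouse arrays and deposited log2 signals per probe set. The submitters name the Transcriptome Analysis Console, without its version; summarization and normalization are not given in the sources used here. A listed control RNA of the manufacturer has an empty column and was not analysed here. Lines and media were taken from the sample titles. Of 28846 probe sets 22206 are for genes and 19572 have a symbol; the probe set with the highest mean was kept per gene (19505 genes). Array medians lie between 6.51 and 6.58, and the number of arrays limits the precision. R 4.3.3 and limma 3.58.1 fitted line and medium (3 residual and 6.17 prior degrees of freedom), with Benjamini-Hochberg adjustment over all genes and a threshold of 0.05, and the fit was tested on simulated data. Genes described in full are those that passed in either modified line with a line above the background limit, plus *Gapdh*, *Ldha*, *Pkm*, *Hif1a* and *Nlrx1*; of each other list, the 2 largest called differences per comparison. The members, lists and tests were chosen with earlier results of these data known. An at-least fold sets, per array, the higher of the dim signal and the brightest background probe set of that array against the bright line. Alternatives were centering, cyclic loess, filters at the 40th percentile and at the background, means of probe sets, a variance trend with robust eBayes, no medium term, and leaving out each array.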

Additional observations from a re-analysis of the deposited data

Results flagged for a closer look

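The responses of the 2 systems (Pan02OE minus Pan02OECTL, and Pan02KD minus Pan02KDCTL) differed for 16 genes with a line above the background, by a limma test of the difference itself. *Slc2a1* (1.87), *Slc16a1* (1.58), *Aldoa* (1.18), *Pdhb* (1.16), *Pgam1* (0.96), *Pgk1* (0.80), *Hif1a* (0.72) and *Dld* (0.71) had the higher value in the overexpression system, on the log2 scale. *Pfkfb3* (−2.92), *Egln1* (−2.22), *Eno3* (−1.93), *Pdk1* (−1.56), *Pfkm* (−1.37), *Pdp1* (−1.19), *Pfkp* (−0.83) and *Pdk3* (−0.72) had the lower. For *Pgam1* and *Hif1a* neither system passed on its own. Each group of line and medium holds 1 array, too few to look for outlying arrays.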

How the results depend on the processing

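Leaving out 1 array leaves a line with 1 array, whose spread is assumed to be that of the other lines. The count of members called then ranged from 6 to 14 for Pan02OE (14 with all arrays), from 1 to 7 for the arrays labelled Pan02KD (9), from 6 to 15 between the control lines (22) and from 10 to 14 for the difference between systems (17). The lowest counts came without Pan02OE in normal medium or Pan02OECTL in H2O2 (6 each), Pan02KD in normal medium (1), either Pan02OECTL array (6 each) and Pan02OE in H2O2 (10). Fewer arrays leave fewer degrees of freedom. Calls over all genes fell too, except for Pan02OE without either Pan02KDCTL array, so the lower counts are not particular to these genes. Genes of the other pathway lists were not refitted in this way. Of the 45 calls of single genes among the 35 (14, 9 and 22 in these comparisons) 34 were kept under all of the 7 other settings that tested the gene, and 9 also without each array: *Pfkfb3*, *Pdk1*, *Pfkm* and *Eno3* in Pan02OE, *Egln1* in the arrays labelled Pan02KD, and *Pfkfb3*, *Pdp1*, *Eno3* and *Egln1* between the control lines. The count for Pan02OE was 12 under cyclic loess (16.3% of all genes) and 20 with a variance trend (20.3%). With genes in the background left out it was 21 (42.2% of the genes tested). The H2O2 count stayed at 0 in every setting. *Pkm* in Pan02OE, which did not pass, went from 0.03 to −0.12 under cyclic loess; the cause was not tested. Medium is a term of the fit, so lines were compared within each medium, as in a block. Without this term the counts were 15 for Pan02OE (16.5% of all genes) and 9 for the arrays labelled Pan02KD (13.4%).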

Other observations

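*Txnip*, which encodes an arrestin-like protein known to lower glucose uptake and to be induced by glucose, was chosen after its values were seen. It read 14.27 in normal medium and 15.73 in H2O2 in Pan02KDCTL, and 14.17 and 15.46 in the arrays labelled Pan02KD. In the overexpression system it read 15.82 and 15.84 in Pan02OECTL and 15.04 and 15.33 in Pan02OE. It was the 1 gene of 19505 (0.00513%) that lay 2-fold or more higher in H2O2 in both lines of the knockdown system. Over all 4 lines the fitted H2O2 difference was 0.76 (SE 0.23, limma adjusted p = 0.741), which did not pass.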
